A study of Mus musculus with 9 samples.

Results

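The 10 transcription factor genes of blood stem cells were followed in bone marrow LSK cells of Abi1 knockout and wild-type mice: Hlf, Mecom, Meis1, Mllt3, Gata2, Gfi1b, Erg, Fli1, Tal1 and Lyl1. They were taken by symbol from a given list, not by their values. All 10 had a probeset of their own among the 30142 named genes of the array, 1 probeset each. LSK cells are marrow cells that lack mature lineage markers and carry Sca-1 and c-Kit, a fraction that holds stem cells and the earliest progenitors. The 4 KO samples came from mice labelled Abi1(-/-);Tg (Mx1-cre(+)), and the 5 WT samples from mice labelled Abi1(fl/fl);Tg (Mx1- cre(-)). Mice of both genotypes were given poly(I:C) 3 times when 8 to 9 weeks old, and marrow was taken at 12 to 14 weeks. Poly(I:C) provokes an interferon response, and the Mx1 promoter that drives Cre answers to interferon in blood cells and in other tissues. Cre was present in KO mice alone, so its own effect and that of the lost gene cannot be told apart. Each array held RNA of 1 mouse, amplified from 5 ng, and 1 array was made per mouse.

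Stem cell identity is held by a small network of factors that bind the same regulatory DNA and sustain each other's genes. TAL1 and LYL1 are related basic helix-loop-helix proteins that work with LMO2, LDB1 and GATA2. ERG and FLI1 are related ETS proteins, and together with RUNX1 these factors form what is known as the heptad. HLF, MECOM, MEIS1 and MLLT3 are more closely tied to self-renewal and decline as stem cells mature. GFI1B is a repressor needed for red cell and platelet formation that also restrains stem cell cycling.

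The promoters of 3 genes are shown, taken from the genes at the ends of the pattern described below. Hlf and Mecom were highest in WT replicates 4 and 5, and Gfi1b was lowest in those arrays. Meis1 and Erg were also highest there and are not shown. RefSeq (GRCm38.p6) supplied the sequences, and 9 of the 10 genes had an entry. Each is the 250 bases before the most upstream listed start, 5′ to 3′ on the gene's strand, and lies before that transcript. Hlf is at chr11:90390918-90391167 on the minus strand, Mecom at chr3:30509760-30510009 on the minus strand and Gfi1b at chr2:28621983-28622232 on the minus strand. Capitals mark the E-box CANNTG, to which TAL1 and LYL1 bind with their partners, and AAATCA, a core of the sites of GFI1 proteins.
Hlf: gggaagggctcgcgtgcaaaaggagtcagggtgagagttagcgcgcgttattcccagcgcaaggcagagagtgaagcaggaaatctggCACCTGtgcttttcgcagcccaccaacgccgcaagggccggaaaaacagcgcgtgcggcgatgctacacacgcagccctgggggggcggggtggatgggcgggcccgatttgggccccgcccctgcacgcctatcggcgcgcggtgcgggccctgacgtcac
Mecom: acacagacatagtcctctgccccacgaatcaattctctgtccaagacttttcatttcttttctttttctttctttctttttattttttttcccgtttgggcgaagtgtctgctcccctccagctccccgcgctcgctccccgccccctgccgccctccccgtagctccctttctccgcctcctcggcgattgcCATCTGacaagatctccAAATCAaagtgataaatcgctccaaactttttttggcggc
Gfi1b: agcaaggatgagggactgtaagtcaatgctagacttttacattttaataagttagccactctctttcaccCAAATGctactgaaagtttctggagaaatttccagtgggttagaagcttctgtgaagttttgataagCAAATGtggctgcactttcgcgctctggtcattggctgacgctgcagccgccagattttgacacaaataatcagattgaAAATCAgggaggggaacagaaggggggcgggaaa
The E-box was found once in the Hlf window, once in the Mecom window and 2 times in the Gfi1b window. It was present in 6 of the 9 windows and in 66.2% of the 32851 RefSeq promoter windows of that length. AAATCA was found in the Mecom and Gfi1b windows, 2 of 9, and in 12.4% of all windows. The windows of Meis1 and Erg, not shown, held no AAATCA, and that of Erg also no E-box. Both strands were searched. AGATAA, a site of GATA factors, was in 1 of 9 windows, that of Tal1, and in 9.99% of all. AGGAAG, a site of ETS factors, was in 0 of 9 and 29.5% of all. TGACAG, a site of MEIS factors, was in 0 of 9 and 15.9% of all. CAGCTG, a form of the E-box and thus also counted under CANNTG, was in 1 of 9, that of Mllt3, and 13.0% of all. TTACGTAA and TTACATAA, read by HLF and its relatives, were in 0 of 9 and in 0.113% and 0.819% of all windows. These are matches of letters, not binding sites.

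Between arrays, r was 0.968 to 0.994 over the genes above background (genes are no replicates). The first KO array and the fifth WT array were least like the rest: each had a median r of 0.973 and 0.979, and the other 7 arrays 0.987 to 0.992. Abi1 was at 5.59 to 6.11 in KO and 11.49 to 11.65 in WT, so the labels match the deleted gene. Kit, the receptor of the gate, read 13.82 to 14.58 in KO and 14.39 to 14.78 in WT, and the progenitor antigen gene Cd34 14.24 to 15.09 over the arrays. Ly6a, the Sca-1 gene, was not analysed here. Of the 8 endothelial marker genes, Cdh5, Cldn5 and Stab2 were below background in all arrays. Kdr was above it in 5 of 9 arrays and Plvap in 3 of 9. Emcn, Pecam1 and Tie1 were above it in all 9, at 7.50 to 8.62, 9.68 to 10.44 and 9.46 to 10.26. Of the 8 genes, 6 had higher and 2 lower KO means. Tie1 was among the lower, with a difference of -0.37 (exact permutation p = 0.0397, limma adjusted p = 0.786). The part of endothelial transcripts in the results was not tested. The list is given because endothelium also uses Erg, Fli1 and Tal1, and its mean log2 signal lay between 6.46 and 6.62 over the 9 arrays. That mean includes 5 genes not above background by their mean signal, so it does not show that the other 3 were steady. Erythroid, megakaryocyte and mast cell transcripts were present (6 of 7, 6 of 7 and 8 of 8 marker genes above background) and are set beside the results that move with them. An array of sorted cells cannot separate fewer cells of a type from less RNA per cell.

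All 10 genes lay above background in every array, 90 of 90 values, by 1.76 or more on the log2 scale. A gene was counted as above background where it exceeded percentile 95 of the 1717 genes of odour and pheromone receptors on that array, and 16023 genes had a mean above it. Signals of different probesets are not comparable, so the genes are not ranked against each other by level. In KO against WT, 0 of the 10 passed an adjusted p of 0.05 in limma, where Abi1 alone passed among all genes (0.00332%). At an unadjusted p under 0.05 there was 1 of 10, Hlf, against 5.01% of all genes and 6.93% of genes above background. The groups overlapped for all 10 members, and 0.856% of all genes had groups that did not overlap. Mean signals were lower in KO for 6 and higher for 4, with a median difference of -0.027. Of all genes 35.8% had a lower KO mean, and of genes above background 45.6%, with median differences of 0.033 and 0.018.

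**Figure D1:**
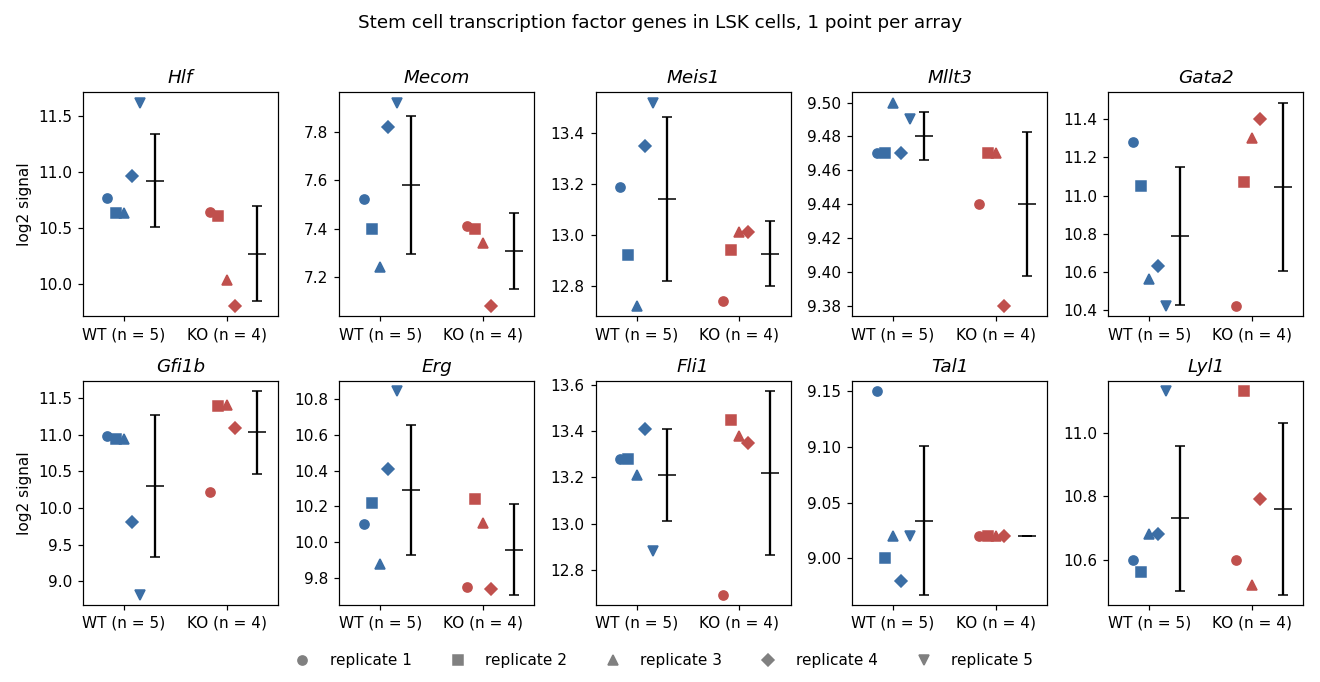
Log2 signal of each gene in the 5 WT and 4 KO arrays, 1 point per array with a marker for the replicate number, and the mean ± SD in black; each panel has its own axis. Hlf runs from 9.80 to 10.64 in KO and 10.63 to 11.62 in WT, Gfi1b is lowest at 8.81 in WT replicate 5, and Tal1 stands at 9.02 in 6 of the 9 arrays.

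Hlf, a PAR bZIP factor that marks stem cells, had the smallest unadjusted p of the 10. KO replicates 1 to 4 gave log2 signals of 10.64, 10.61, 10.03 and 9.80, and WT replicates 1 to 5 gave 10.77, 10.63, 10.63, 10.96 and 11.62. KO replicates 3 and 4 were the lowest, WT replicate 5 the highest, and the ranges met at 10.63 to 10.64. The KO arrays averaged 10.27 ± 0.421 (SD, n = 4), the WT arrays 10.92 ± 0.413 (SD, n = 5). The difference was -0.65 (SE 0.26, 95% interval -1.24 to -0.07), a 1.57-fold lower KO signal if the deposited values are log2. Over all genes it did not pass (limma adjusted p = 0.786). The exact two-sided permutation test over all splits of the arrays gave p = 0.0476. The unadjusted limma p was under 0.05 in 12 of 18 alternatives, some of which repeat a fit or cannot change the difference. It was 0.0861 without KO replicate 3, 0.0966 without KO replicate 4, 0.0602 without WT replicate 4, 0.0505 without WT replicate 5 and 0.0868 with the replicate block. The difference kept its direction in all 18, from -0.78 to -0.48, the smallest without WT replicate 5 (alone or with the replicate block). Mast cell and basophil marker genes are set beside Hlf. Their mean was 9.17 to 9.62 in KO and 7.70 to 9.44 in WT (summed, 14.24 to 14.66 and 13.26 to 14.96). All 8 had higher KO means, where 35.8% of all genes and 45.6% of genes above background had a lower one. An unadjusted p under 0.05 was reached by 3 of them, against 3.82% of all genes in that direction. With Hlf the mast cell and basophil mean had an r of -0.78 (exact permutation p = 0.0165, adjusted p = 0.0957) and a rho of -0.80 (exact permutation p = 0.0122, adjusted p = 0.244). Without WT replicate 5 that r was -0.46. Hlf had a similar r with the erythroid mean, at -0.76 (exact permutation p = 0.0229, adjusted p = 0.0957). With the megakaryocyte mean it was -0.71 (exact permutation p = 0.0502, adjusted p = 0.134). Without WT replicate 5 these were -0.39 and -0.14. With the genotype means taken out, r was -0.66 for the mast cell list, -0.88 for the erythroid and -0.63 for the megakaryocyte list. All 7 proliferation genes had lower KO means, as did 35.8% of all genes and 45.6% of genes above background. The mean of these 7 was 11.81 to 12.76 in KO and 12.44 to 13.09 in WT. The part of these genes in the difference of Hlf was not tested. Its relatives Tef and Dbp hardly varied, with Tef at 6.78 in 8 of 9 arrays and Dbp at a difference of 0.025, and Nfil3, a repressor that reads the same sites, lay below background.

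Mecom encodes the zinc finger protein EVI1 and its longer form, on which the upkeep of adult stem cells depends. Its log2 signals were 7.41, 7.40, 7.34 and 7.08 in KO replicates 1 to 4 and 7.52, 7.40, 7.24, 7.82 and 7.92 in WT replicates 1 to 5. WT replicates 4 and 5 were above every KO array, while WT replicates 2 and 3 lay inside the KO range. The difference of -0.27 (SE 0.15, 95% interval -0.61 to 0.07) did not pass (limma adjusted p = 0.786). Prdm16, the closest relative of Mecom, differed by -0.13, and the corepressor genes Ctbp1 and Ctbp2 by -0.0505 and -0.026. None of these 3 passed or had an unadjusted p under 0.05.

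Meis1 encodes the homeodomain partner of HOX proteins in stem cells. KO replicates 1 to 4 read 12.74, 12.94, 13.01 and 13.01, and WT replicates 1 to 5 read 13.19, 12.92, 12.72, 13.35 and 13.52 on the log2 scale. The KO arrays spanned 12.74 to 13.01, within the wider WT range of 12.72 to 13.52. Its difference was -0.22 (SE 0.16, 95% interval -0.58 to 0.15, limma adjusted p = 0.786), and -0.0583 without KO replicate 1 and WT replicate 5. Of 5 partner genes measured, 1 had a higher and 4 a lower KO mean, with none passing. Pbx3 differed by 0.18, Pbx4 by -0.17 and Pknox1 by -0.22. Hoxa9, Hoxa7 and Hoxb4 were not matched to a probeset of 1 symbol and were not analysed here.

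Mllt3, or AF9, brings elongation factors and the DOT1L methyltransferase to chromatin and supports self-renewal. Its signal hardly varied: 9.44, 9.47, 9.47 and 9.38 in KO and 9.47, 9.47, 9.50, 9.47 and 9.49 in WT. Of the 9 arrays 5 held the same value, 9.47, and 1.49% of genes above background had a smaller SD over the arrays. The difference was -0.04 (SE 0.032, 95% interval -0.11 to 0.03, limma adjusted p = 0.786), and 0.0135 with quantile normalization, so no direction can be given. Dot1l differed by -0.012, Aff1 by 0.0525 and Aff4 by -0.0695. Among the 8 elongation partners measured, 2 had a higher KO mean and 6 a lower one, and 0 had an unadjusted p under 0.05.

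The ETS pair differed in how it varied. Erg, which protects stem cells from differentiating, read 9.75, 10.24, 10.11 and 9.74 in KO replicates 1 to 4 and 10.10, 10.22, 9.88, 10.41 and 10.84 in WT replicates 1 to 5. KO replicates 1 and 4 were lowest, and WT replicates 4 and 5 exceeded every KO array. The difference was -0.33 (SE 0.2, 95% interval -0.78 to 0.12, limma adjusted p = 0.786), and -0.12 without KO replicate 1 and WT replicate 5. Fli1, a factor of stem cells and of platelet formation, read 12.69, 13.45, 13.38 and 13.35 in KO and 13.28, 13.28, 13.21, 13.41 and 12.88 in WT. KO replicate 1 and WT replicate 5 were its lowest arrays, and the other 7 lay between 13.21 and 13.45. Its difference was 0.0055 (95% interval -0.39 to 0.40, limma adjusted p = 0.995), with a sign that changed in 8 of 18 alternatives, some of them over the same arrays. Of 9 other ETS genes, Ets1 alone had an unadjusted p under 0.05, with a difference of 0.24. Its unadjusted limma p was 0.0331 and its limma adjusted p = 0.786. Etv6, needed for stem cells in adult marrow, differed by -0.11, and Elk3 and Elk4 by -0.19 and -0.21.

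Gata2 and Gfi1b had higher KO means. Gata2, the GATA factor of stem and early progenitor cells and of mast cells, read 10.42, 11.07, 11.30 and 11.40 in KO replicates 1 to 4. It read 11.28, 11.05, 10.56, 10.63 and 10.42 in WT replicates 1 to 5. Both groups covered most of the same range, with KO replicate 1 and WT replicate 5 equal at the bottom. The difference was 0.26 (SE 0.25, 95% interval -0.30 to 0.82, limma adjusted p = 0.786) and was 0.47 without KO replicate 1, 0.14 without KO replicate 4, and 0.17 without WT replicate 5 or with the replicate block. Gfi1b read 10.22, 11.40, 11.41 and 11.10 in KO and 10.99, 10.94, 10.94, 9.81 and 8.81 in WT. It had the widest spread of the 10, with 98.5% of genes above background varying less. KO replicate 1 and WT replicates 4 and 5 were low, and the other 6 arrays lay between 10.94 and 11.41. The difference was 0.73 (SE 0.5, 95% interval -0.42 to 1.89, limma adjusted p = 0.786), and 0.36 without WT replicate 5. Gata1, which takes over from GATA2 as red cells and platelets form, differed by 0.28. Of the corepressors of GFI1B, Kdm1a differed by -0.0685 and Rcor1 by -0.046. Hdac2 differed by -0.20, with an unadjusted limma p of 0.0285 and a limma adjusted p = 0.786. Gfi1, the paralogue of Gfi1b, stood at 5.25 to 5.65, near background.

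Tal1 and Lyl1, the helix-loop-helix pair, showed the smallest contrasts beside Fli1 and Mllt3. Tal1 was 9.02 in all 4 KO arrays and 9.15, 9.00, 9.02, 8.98 and 9.02 in WT replicates 1 to 5. One value thus recurred in 6 of 9 arrays of different mice, as it does for 5.66% of genes above background. Its difference was -0.014 (95% interval -0.11 to 0.08, limma adjusted p = 0.916), and 0.0336 with quantile normalization. Lyl1 read 10.60, 11.13, 10.52 and 10.79 in KO and 10.60, 10.56, 10.68, 10.68 and 11.13 in WT. KO replicate 2 and WT replicate 5 shared its highest value. Its difference was 0.03 (95% interval -0.32 to 0.38, limma adjusted p = 0.957), with a sign that changed in 4 of 18 alternatives. Within the TAL1 complex, Lmo2, the bridging protein gene, differed by -0.20 and Ldb1, its binding partner, by 0.17, at unadjusted limma p-values of 0.0796 and 0.0815 and adjusted p-values of 0.786. The E-protein gene Tcf3 differed by -0.19 and the corepressor gene Cbfa2t3 by 0.22. Of 11 complex partners, 5 had higher and 6 lower KO means, and 0 had an unadjusted p under 0.05. For the heptad as a whole, 4 of 7 genes had higher KO means, with a median difference of 0.005.

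**Figure D2:**
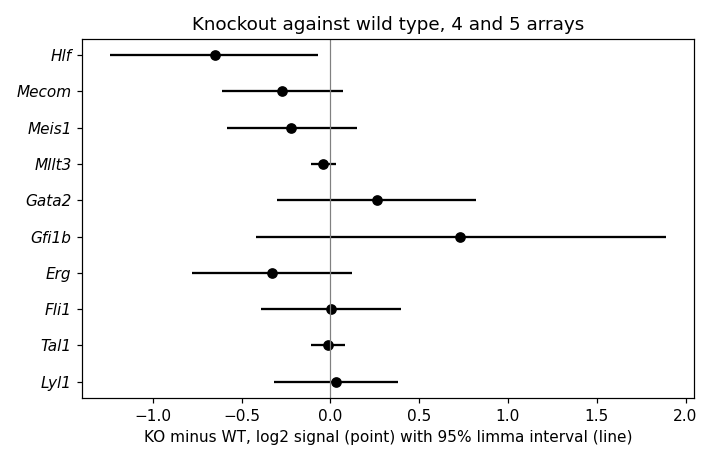
Difference in mean log2 signal, KO (n = 4) minus WT (n = 5), for each gene as a point with limma's 95% interval as a line. The interval of Hlf, from -1.24 to -0.07, lies below 0 and those of the other 9 genes contain it; after adjustment over all genes none passed.

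Of 86 genes in the lists of partners, relatives, other stem cell regulators, stem cell surface genes and lineage regulators, 40 had higher and 46 lower KO means, with 0 past an adjusted p of 0.05. At an unadjusted p under 0.05 there were 4 higher and 1 lower, against 3.82% and 1.19% of all genes. Besides Ets1 and Hdac2 these were the early B cell factor gene Ebf1 (0.48), the granulocyte factor gene Cebpe (0.53) and Zfx (0.20), which sustains stem cells. Runx1, the seventh of the heptad with the members and Lmo2, differed by 0.11 and Myb by -0.20. Of 14 lineage regulators 13 had higher KO means, Ikzf1 (-0.22) being the exception, with a median of 0.178. Lower KO means were found for 35.8% of all genes and 45.6% of genes above background. Ebf1 and Cebpe were near background, above it in 6 and 7 of the 9 arrays. Beside them, 7 B cell marker genes (4 above background) averaged 5.96 to 6.03 in KO and 5.54 to 5.74 in WT, and 8 neutrophil marker genes (6 above background) 6.04 to 8.64 and 5.57 to 6.96. The part of these markers in the result was not tested.

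Hlf, Mecom, Meis1 and Erg were highest in the same 2 arrays, WT replicates 4 and 5, and less alike in the others. WT replicate 5 held the highest value of all 4 genes and WT replicate 4 the second highest. The same 2 arrays held the lowest values of Gfi1b. Relative to its mean over the arrays, WT replicate 5 lay at 0.99 for Hlf, 0.46 for Mecom, 0.48 for Meis1 and 0.70 for Erg, and at -1.81 for Gfi1b. In KO replicate 1 Hlf was at 0.01 while Meis1, Erg and Gfi1b were all low, at -0.30, -0.39 and -0.40, and in KO replicate 4 Hlf was at -0.83 and Meis1 at -0.03. This set of 4 was singled out after its values were seen.

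**Figure D3:**
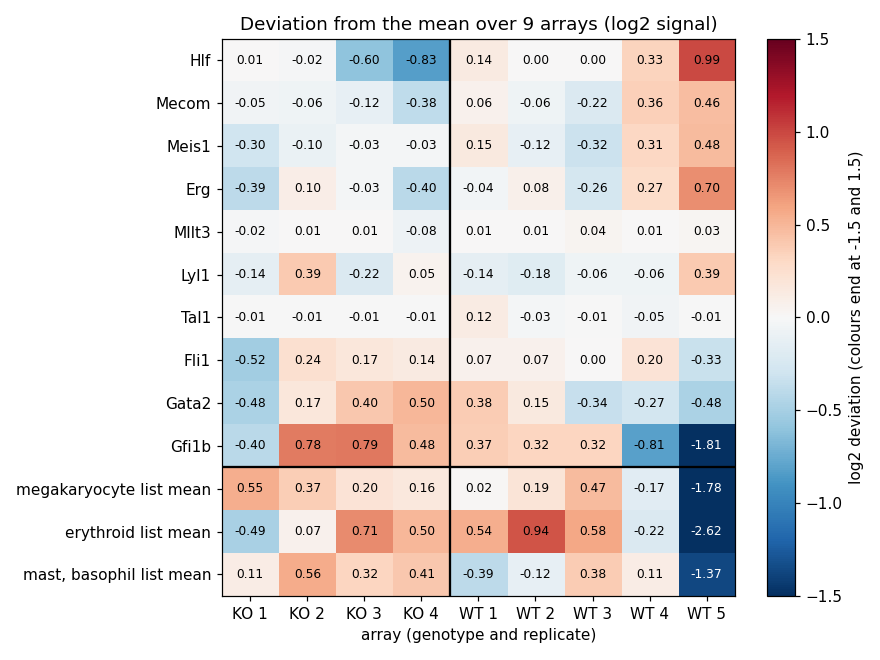
Deviation of each gene's log2 signal from its own mean over the 9 arrays (rows) in each array (columns), red above and blue below, with the means of 3 marker lists under the line. In WT replicate 5 Hlf, Mecom, Meis1 and Erg are above their means while Gfi1b and all 3 marker lists are below, down to -2.62 for the erythroid list.

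All 45 pairs of the 10 genes were compared. Pearson's r was at least 0.8 for 4 pairs (8.89%) and at most -0.8 for 2 (4.44%). Over all pairs of genes above background these shares were 3.55% and 2.95%, and the median absolute r was 0.352 against 0.396 for the members. Adjusted over the 45 pairs, 0 passed by Pearson's r and 10 had an unadjusted exact permutation p under 0.05. The count that passed was 1 without KO replicate 1, 1 without KO replicate 3, 4 without KO replicate 4 and 6 with each array centred on its median. By Spearman's rho 1 pair passed and 5 had an unadjusted exact permutation p under 0.05.

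The pair that passed by rank was Hlf and Mecom. Its r was 0.88 (exact permutation p = 0.00388, adjusted p = 0.0701) and its rho 0.92 (exact permutation p = 0.000976, adjusted p = 0.0439). Leaving out KO replicate 4 and WT replicate 5, the arrays farthest from the median of Hlf, gave an r of 0.63. Without KO replicate 1 and WT replicate 5 the r was 0.79, and with the genotype means taken out 0.83.

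Mecom and Erg had an r of 0.87 (exact permutation p = 0.00189, adjusted p = 0.0701) and a rho of 0.68 (exact permutation p = 0.0515, adjusted p = 0.386). Without WT replicates 4 and 5 that r was 0.59, and without KO replicate 1 and WT replicate 5 it was 0.89. Meis1 and Erg had an r of 0.82 (exact permutation p = 0.00623, adjusted p = 0.0701) with a rho of 0.57 (exact permutation p = 0.115, adjusted p = 0.509), and 0.41 without WT replicates 4 and 5. Mecom and Meis1 reached 0.81 (exact permutation p = 0.0103, adjusted p = 0.0745) with a rho of 0.61 (exact permutation p = 0.0846, adjusted p = 0.476), and 0.24 without those 2 arrays. The relation of Meis1 to Erg and to Mecom thus rests on WT replicates 4 and 5. Over the 6 pairs among the 4 genes r ran from 0.58 to 0.88, from 0.44 to 0.83 with the genotype means taken out and from 0.29 to 0.89 without KO replicate 1 and WT replicate 5. Without KO replicate 4 and WT replicate 5, r dropped from 0.78 to 0.24 for Hlf and Erg and from 0.58 to 0.34 for Hlf and Meis1.

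Gfi1b was opposed to Mecom at an r of -0.82 (exact permutation p = 0.00796, adjusted p = 0.0716; rho -0.68, exact permutation p = 0.0465, adjusted p = 0.386). Without WT replicates 4 and 5 this was -0.16, so it rests on those arrays. Against Meis1 and Erg the r of Gfi1b was -0.66 (exact permutation p = 0.0545, adjusted p = 0.223; rho -0.24, exact permutation p = 0.539, adjusted p = 0.815) and -0.65 (exact permutation p = 0.0626, adjusted p = 0.235; rho -0.36, exact permutation p = 0.340, adjusted p = 0.795). Both turned positive without WT replicates 4 and 5, at 0.52 and 0.59. Against Hlf the r of Gfi1b was -0.81 (exact permutation p = 0.00603, adjusted p = 0.0701), with a rho of -0.85 (exact permutation p = 0.00521, adjusted p = 0.103). That r was -0.67 without KO replicate 4 and WT replicate 5, the arrays farthest from the median of Hlf, and -0.58 without WT replicate 5 alone. Leaving out WT replicates 4 and 5 together was not done for this pair, so it cannot be set beside the others. Gata2 and Gfi1b ran together, at an r of 0.75 (exact permutation p = 0.0116, adjusted p = 0.0745) and a rho of 0.84 (exact permutation p = 0.00687, adjusted p = 0.103). Without KO replicate 1 and WT replicate 5, their r was 0.63. Gata2 was also opposed to Hlf, at an r of -0.71 (exact permutation p = 0.0199, adjusted p = 0.0997) and a rho of -0.71. That r was -0.67 without KO replicate 1 and WT replicate 5, and -0.46 without KO replicate 4 and WT replicate 5. Gata2 and Fli1 had an r of 0.7 (exact permutation p = 0.0245, adjusted p = 0.11), and 0.22 without KO replicate 1 and WT replicate 5. The ETS pair did not run together: Erg and Fli1 had an r of -0.01 (exact permutation p = 0.976, adjusted p = 0.988) and a rho of 0.28 (exact permutation p = 0.454, adjusted p = 0.815), but 0.83 without KO replicate 4 and WT replicate 5. Tal1 and Lyl1 had an r of -0.14 (exact permutation p = 0.718, adjusted p = 0.951) and a rho of 0.06 (exact permutation p = 0.891, adjusted p = 0.936), with Tal1 at one value in 6 of the arrays.

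**Figure D4:**
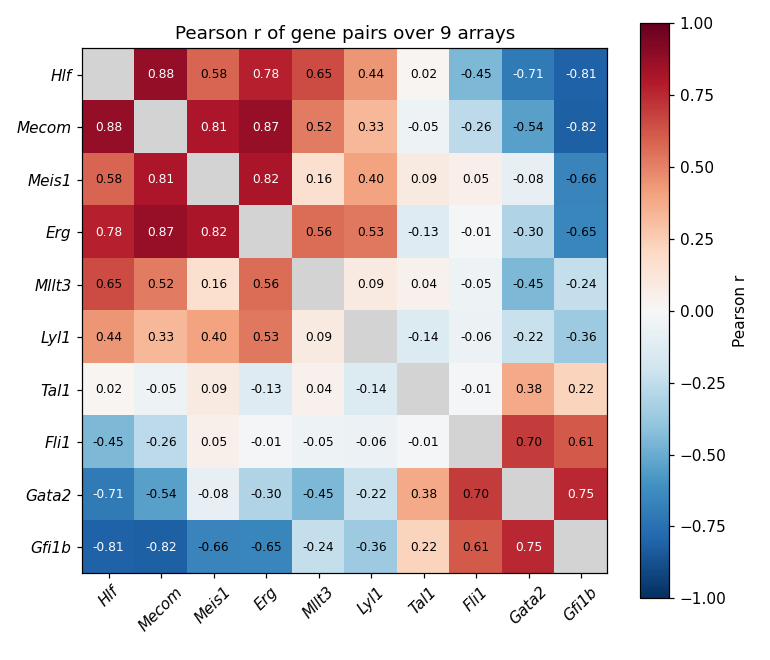
Pearson's r over the 9 arrays for each of the 45 pairs, red positive and blue negative, with the diagonal in grey. Hlf, Mecom, Meis1 and Erg form a positive block from 0.58 to 0.88 and each is negative against Gfi1b, from -0.82 to -0.65; none of these values passed after adjustment over the pairs, and those of Gfi1b with Meis1 and Erg turned to 0.52 and 0.59 without WT replicates 4 and 5.

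The erythroid and megakaryocyte means were lowest in WT replicate 5. The mean log2 signal of 7 erythroid marker genes was 8.76 to 9.96 in KO and 6.63 to 10.18 in WT. That of 7 megakaryocyte marker genes was 9.34 to 9.73 in KO and 7.40 to 9.65 in WT. Summed on the linear scale and put back to log2, the erythroid genes gave 15.51 to 16.96 in KO and 11.65 to 17.11 in WT, and the megakaryocyte genes 15.41 to 15.69 and 11.53 to 15.98. The red cell membrane gene Slc4a1 was below background in all arrays. Each of the 10 members was compared with the erythroid, megakaryocyte, mast cell and proliferation means, 40 relations chosen after the data were seen. After adjustment over the 40, 1 passed and the others did not: Meis1 was low where megakaryocyte genes were high. Without WT replicate 5 alone, some relations shrank more than others. For Hlf and the megakaryocyte mean r went from -0.71 to -0.14. With the erythroid mean it went from -0.62 to -0.05 for Meis1 and from -0.67 to 0.05 for Erg. Gfi1b and the megakaryocyte mean went from 0.8 to 0.26, but stood at 0.7 without KO replicate 1 and WT replicate 5. Less was lost for Gfi1b and the erythroid mean, from 0.89 to 0.68. With the megakaryocyte mean r went from -0.84 to -0.62 for Erg and from -0.76 to -0.58 for Mecom. These examples were picked after their values were seen. For Meis1 and the megakaryocyte mean r was -0.86 (exact permutation p = 5.51e-05, adjusted p = 0.0022) and rho -0.92 (exact permutation p = 0.000981, adjusted p = 0.0392). The r was -0.83 with the genotype means taken out and -0.96 without KO replicate 1 and WT replicate 5, the arrays farthest from the median of the list, but with 7 arrays the call was lost (exact permutation, adjusted p = 0.143). Centring each array on its median gave -0.75 and ended the call (exact permutation, adjusted p = 0.0561). Among the 7 genes, Meis1 had its most negative r with Gp9, a platelet glycoprotein gene (-0.92), and with Pf4, a platelet chemokine gene (-0.83), and its weakest with Itga2b (-0.39). Without those 2 arrays Itga2b was at -0.07 and Gp6 at 0.22. Of the genes above background, 2.10% were as negatively correlated with that mean as Meis1.

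Between Gfi1b and the erythroid mean r did not pass, at 0.89 (exact permutation p = 0.00495, adjusted p = 0.0727) and a rho of 0.59 (exact permutation p = 0.103, adjusted p = 0.494). Without KO replicate 1 and WT replicate 5 that r was 0.57. The red cell factor gene Klf1 was the erythroid gene closest to Gfi1b, at an r of 0.93 (0.73 without those arrays), and read 5.63 in WT replicate 5 and 7.60 to 10.04 elsewhere. Alas2, a haem synthesis gene, and Slc4a1 went the other way, at -0.40 and -0.19, and Ermap went from 0.84 to 0.34 without those arrays. As positive an r to the erythroid mean was found for 2.52% of genes above background. The part of these lineage transcripts in the differences between KO and WT was not tested.

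**Figure D5:**
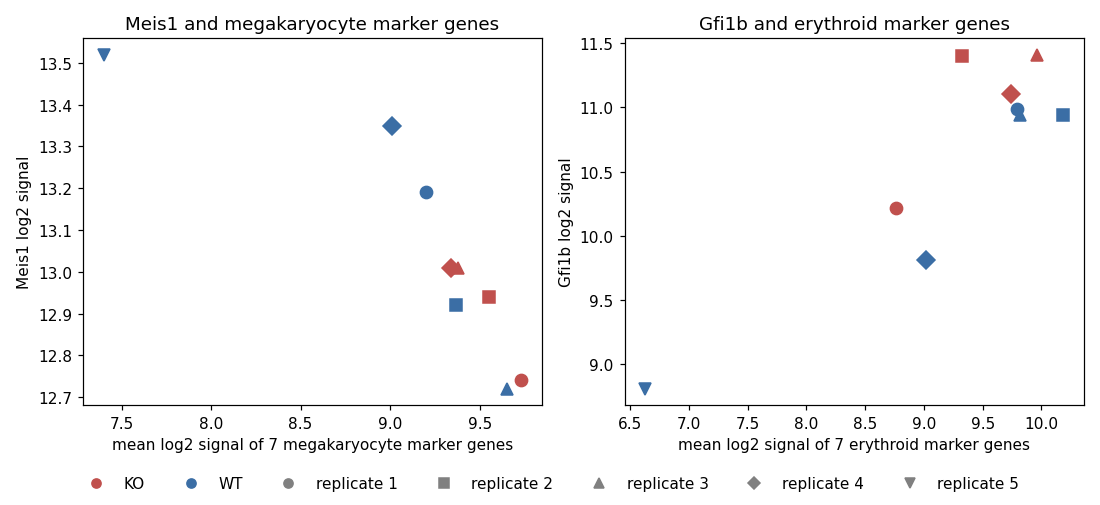
Log2 signal of Meis1 against the mean of 7 megakaryocyte marker genes (left) and of Gfi1b against the mean of 7 erythroid marker genes (right), 1 point per array, red for KO and blue for WT. WT replicate 5 lies far to the left in both panels, at 7.40 and 6.63; the other 8 points still fall from left to right for Meis1.

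Model and clone names, pseudogenes, small RNAs, and odour and pheromone receptor genes were skipped by name. The genes most like each member over the 9 arrays were then sought among 10718 others above background. Such lists hold very high values by their size alone, and 1.66% of genes above background had an r of 0.8 or more with Hlf and 6.97% with Fli1. For Hlf they were Xpo7, a nuclear transport receptor gene (r = 0.983), Tle2, a corepressor gene (0.967), and Hdhd5 (0.961). For Mecom the nearest were Hspa12b (0.974), Parp3 (0.973) and Tirap (0.971), for Meis1 Slc25a3 (0.961), Adss (0.957) and Mast3 (0.948). Those of Erg were Atp10a (0.980), Oga (0.967) and Plpp7 (0.964), and those of Fli1 Mief1 (0.985), Smpd1 (0.974) and Bsg (0.971). Gata2 was nearest to Gadd45g, a growth arrest gene (0.969), then Slc25a38 (0.922) and Tmem104 (0.919). Gfi1b was nearest to Sav1 (0.969), Tmem9b (0.964) and Dpf3 (0.960), and Lyl1 to Emsy (0.963), Cyp4f17 (0.954) and Mbd6 (0.933). Mllt3, at Mmaa (0.976), Plod2 (0.952) and Rad51c (0.933), and Tal1, at Xcl1 (0.965), Igkv8-21 (0.958) and Tef (0.957), have one value in 5 and 6 of the 9 arrays, so their r follows the few arrays that differ. No member was among the 3 nearest of another member.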

How the data were processed

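Total RNA of sorted LSK cells from 4 KO and 5 WT mice was hybridised to Affymetrix whole-transcript arrays after WT Pico amplification, per the labels' protocols. The deposited table holds 72688 probesets as the authors' log2 signals; the log2 base is read from the range of 1.84 to 19.45, the submitters' processing notes name Partek 6.6, and the normalization is not given in the sources used here. Control probesets (6732) were left out. Probesets with exactly 1 symbol (30604) were named from the platform annotation, symbols were updated through RefSeq, and the brightest stood for each of 30142 genes. The contrast of genotypes was fitted in limma 3.58.1, R 4.3.3 (lmFit, eBayes without trend, Benjamini-Hochberg over all genes, threshold 0.05, no covariate), checked on simulated data. Permutation tests were exact and two-sided, over all splits of the arrays or all 362880 pairings (numpy 2.4.6). The number of arrays limits the precision. No batch is given in the labels. Alternatives were quantile normalization, median centring, a filter on dim genes, the mean of probesets, a trended prior, array weights, left-out arrays and a replicate block. Named were all members, listed partners, up to 3 genes per list and direction by unadjusted p, and the 3 genes of highest r per member; further list genes and lineage markers given as examples were chosen after their values were seen. Members and lists were chosen with earlier results of these data known.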

Additional observations from a re-analysis of the deposited data

Results flagged for a closer look

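In 5 of 23 sets of arrays examined, 1 array lay far from the rest by Dixon's test. The sets were each member, Abi1 and Kit, within KO and within WT, leaving out Tal1 in KO, whose 4 values are equal. Chance gives about 1 in 20 for 1 set. The sets share the same arrays, so 5 of 23 cannot be read as an excess. The first KO array held Fli1 at 12.69, where the 3 others held 13.35 to 13.45. It also held Kit, the gate gene, at 13.82, below 14.53 to 14.58. Among WT arrays Kit stood at 14.39 in replicate 3 and at 14.70 to 14.78 in the 4 others. Lyl1 was 11.13 in WT replicate 5, against 10.56 to 10.68. Tal1 was 9.15 in WT replicate 1, against 8.98 to 9.02.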

How the results depend on the processing

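None of the 10 members passed under any alternative, and Hlf, Mecom, Meis1, Erg, Gata2 and Gfi1b kept their direction in all 18. The 18 are not independent checks. The filter on dim genes, the mean of probesets (1 per member) and the trended prior cannot change a difference. Leaving out WT replicate 5 and the 2 fits over replicates 1 to 4 give the same differences. Signs turned for members with differences near 0: with quantile normalization Mllt3 (0.0135), Fli1 (-0.0372) and Tal1 (0.0336), and with median centring Fli1 (-0.0415) and Lyl1 (-0.0170). Leaving out 1 array at a time gave -0.0775 to 0.18 for Fli1, -0.0933 to 0.13 for Lyl1 and -0.0275 to 0.015 for Tal1. Deviations of same-numbered arrays had correlations of -0.178, 0.146, -0.013 and 0.270, with 2 of 4 closest to their own number. So few arrays cannot show whether the numbers pair the mice. With the replicate block, over replicates 1 to 4, 1 gene passed and Fli1 was at -0.0775. The differences over the same arrays with no block are equal to these by design, as each number holds 1 KO and 1 WT array. That fit was added after seeing the data and is the same as leaving out WT replicate 5. Over all genes 1 passed, and 2 with array weights. The genes with an unadjusted p under 0.05 numbered 1509, 955 when tested among genes above background and 1005 (WT replicate 4) to 1924 (WT replicate 3) with 1 array left out. Pairs of members that passed by Pearson's r numbered 0, 6 with median centring, and 0 to 4 with 1 array left out. Above the percentile 95 of probesets marked neg, 29 of 90 member values remained. The relation of Meis1 to the megakaryocyte mean kept its sign in all 13 alternatives, added after seeing the data, and did not pass with median centring or, with 7 arrays, without KO replicate 1 and WT replicate 5 (r = -0.96, exact permutation, adjusted p = 0.143). The cause of these changes was not tested.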

Other observations

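Of 14 genes listed as surface and other markers of stem cells and progenitors, WT replicates 4 and 5 were the 2 highest arrays for 3, named after their values were seen. WT replicate 5 was highest for 5 of the 14 and lowest for 4. Flt3, the receptor gene of lymphoid-primed progenitors, read 12.15 and 12.78 in these arrays and 10.81 to 11.57 in the other 7. Robo4, an adhesion receptor gene of stem cells, read 8.84 and 8.72 there and 7.66 to 8.45 elsewhere. Fgd5, a stem cell marker gene, read 7.45 and 7.53 and 6.43 to 7.17 elsewhere. Slamf1, which encodes CD150, Tek, Ctnnal1 and Vwf were instead lowest in WT replicate 5, at 8.63, 7.75, 6.25 and 5.83. In the other 8 arrays they read 9.61 to 11.28, 8.31 to 8.71, 6.66 to 6.67 and 7.24 to 8.19.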
